A study of Mus musculus with 8 samples.

Results

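Arterial endothelial markers are genes whose expression separates the cells lining arteries from those lining veins and capillaries. The list held 9 genes, Sox17, Gja4, Gja5, Efnb2, Bmx, Ltbp4, Fbln5, Cxcl12 and Unc5b. They were chosen by name, with earlier results of these data known. They were followed through the deposited table of a targeted mouse transcriptome panel in which 1 amplicon stands for 1 gene. Of these, 8 had a row among the 23930 amplicons, and all 8 were among the 12820 genes that passed the filter on low values. Gja5 was not analysed here. The libraries came from kidneys of 8 mice, 1 library per mouse. All mice carried an EGFP-tagged ribosomal protein Rpl10a switched on by tamoxifen through cdh5-CreERT2, so that ribosomes of endothelial cells could be pulled down with their mRNA. In 2 SOCS3iKEO mice given 250 µg of LPS in 250 µl into the abdominal cavity, 1 SOCS3iKEO mouse given 250 µl of saline, 3 WT mice given the same LPS dose and 2 WT mice given saline, kidneys were taken after 14 h. LPS is lipopolysaccharide, the endotoxin of gram-negative bacteria, and SOCS3iKEO, which the labels do not spell out, is read here from its name and the Cre driver as an inducible deletion in endothelium of Socs3, whose protein damps cytokine signalling through JAK kinases and STAT factors. Age and sex of each mouse are not given. The extraction notes speak of minced kidney dissolved in Trizol and do not name the pull-down.

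Arteries and veins are set apart during development by Notch signalling and SOXF transcription factors on the arterial side, and the distinction is kept up in the adult by shear stress and by signals between endothelium and vessel wall. Arterial endothelium is known for ephrin-B2, which meets its receptor EphB4 on venous cells, for gap junctions built of its own set of connexins, and for contributing proteins of the elastic fibres that let arteries recoil. Several of these genes, among them Ltbp4, Fbln5, Efnb2 and Cxcl12, are also made by smooth muscle cells, pericytes or fibroblasts, so none of them alone marks a cell as arterial.

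Libraries held 7093794 to 14877519 panel reads, and the floor set for detection, 3 reads, came to 0.202 to 0.423 reads per 1000000 panel reads (RPM). Levels below are RPM after TMM scaling between libraries, tests are limma on log2(scaled RPM + 1), and a gene was called when its Benjamini-Hochberg adjusted p over 12820 genes was under 0.05. The p-values measure the spread between these mice, and the single SOCS3iKEO saline mouse was given the spread of the other groups. The pan-endothelial genes Cdh5 and Pecam1 were present in every library, at 247 to 1921 and 300.0 to 1184 scaled RPM. Socs3 itself was at 3.53 and 2.50 scaled RPM in SOCS3iKEO LPS, 0.226 in SOCS3iKEO saline, 9.94, 1.18 and 2.34 in WT LPS, against 0.50 and 0.161 in WT saline, and since the labels do not say whether its amplicon lies in the deleted stretch, it does not check the genotype labels. The SOCS3iKEO LPS libraries stood apart with TMM factors of 0.671 and 0.709, against 0.994 to 1.26 in the other libraries. Y-linked genes had 3320 to 3987 reads in WT saline 2, WT LPS 2 and WT LPS 3 and at most 3 reads in the other libraries. Animal numbers in the labels fell into a run with the SOCS3iKEO LPS and WT saline mice and a run with the SOCS3iKEO saline and WT LPS mice, so run and LPS within a genotype, run and genotype within a treatment, and run and the interaction cannot be told apart.

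The 250 bases before the annotated start were read from RefSeq (GRCm38.p6, the assembly that the submitters' processing notes call mm10) for 7 of the 8 genes in 10 entries. They were searched on both strands for the letters TTCNNNGAA (STAT), TGGGAA (RBPJ, the Notch effector), ACAAT (SOX) and CACCC (KLF). Of all 32851 promoter entries of that length 7.02% held the STAT letters, 21.6% the RBPJ letters, 27.7% the SOX letters and 52.0% the KLF letters. The STAT letters were in 0 of the 10 entries. The first pair below is shown because Bmx and Ltbp4 differed in opposite directions between the genotypes after LPS, and the second because Efnb2 and Gja4 were both lower after LPS in WT. Capitals mark matched letters, or their reverse complement, which did not overlap. All 4 genes are on the minus strand, and the sequences run 5′ to 3′ on that strand toward the start.
Bmx, chrX:164258194-164258443, with 1 RBPJ and 2 SOX matches: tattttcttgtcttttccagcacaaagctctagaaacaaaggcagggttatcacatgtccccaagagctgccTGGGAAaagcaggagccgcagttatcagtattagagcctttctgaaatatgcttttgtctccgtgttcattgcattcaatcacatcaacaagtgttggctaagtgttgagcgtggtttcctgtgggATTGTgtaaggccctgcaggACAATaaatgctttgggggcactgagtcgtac
Ltbp4, chr7:27337613-27337862, with no match: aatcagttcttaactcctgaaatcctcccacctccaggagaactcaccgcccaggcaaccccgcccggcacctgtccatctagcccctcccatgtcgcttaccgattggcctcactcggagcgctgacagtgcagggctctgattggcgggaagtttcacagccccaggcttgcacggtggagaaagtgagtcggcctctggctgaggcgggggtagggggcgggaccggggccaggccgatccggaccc
Efnb2, chr8:8661243-8661492, with 1 KLF match: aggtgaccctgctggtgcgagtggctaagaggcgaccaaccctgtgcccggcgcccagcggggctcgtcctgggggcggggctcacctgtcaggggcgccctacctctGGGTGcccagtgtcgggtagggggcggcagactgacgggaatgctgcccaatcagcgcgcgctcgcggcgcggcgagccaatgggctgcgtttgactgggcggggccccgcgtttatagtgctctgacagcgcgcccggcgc
Gja4, chr4:127314040-127314289, with 1 SOX match: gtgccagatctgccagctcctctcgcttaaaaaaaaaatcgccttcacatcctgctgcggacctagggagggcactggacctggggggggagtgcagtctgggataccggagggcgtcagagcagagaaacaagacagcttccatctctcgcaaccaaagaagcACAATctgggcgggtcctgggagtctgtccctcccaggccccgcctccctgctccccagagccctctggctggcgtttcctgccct
The other 2 entries of Ltbp4 overlap each other and share 1 KLF match, Fbln5 has 1 RBPJ match in one entry and 1 KLF match in the other, Cxcl12 has 1 RBPJ, 1 SOX and 2 KLF matches, and Unc5b has none. Bmx had the lowest GC content of the 4 windows shown, at 45.6%, against 61.2% in Gja4, 64.4% in Ltbp4, 72.0% in Efnb2 and a median of 52.4% over all entries. A match describes the letters in these windows and no binding was measured.

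Of the 8 arterial markers, only Ltbp4 was called lower with LPS in both genotypes. In WT, 4 of the 8 genes fell (Ltbp4, Efnb2, Sox17 and Gja4) and 0 rose, where 15.6% of all genes tested were called, 8.79% lower and 6.85% higher. In 7 of 8 genes, all except Unc5b, every WT LPS library lay below both WT saline libraries, as did 29.7% of all genes tested. In SOCS3iKEO, 3 of 8 fell (Bmx, Fbln5 and Ltbp4) and 0 rose, where 44.1% of all genes were called, 23.9% lower and 20.2% higher. The median log2 fold change of the 8 genes was -0.71 in SOCS3iKEO and -0.95 in WT, against -0.08 and -0.02 over all genes tested. The medians of the 8 genes were -1.50 in SOCS3iKEO and -1.18 in WT on RPM as deposited, and -0.23 and -0.65 relative to endothelial markers, so the order of the genotypes turned with the scaling. The 23 endothelial markers moved with LPS themselves, 6 higher and 11 lower in SOCS3iKEO and 2 higher and 6 lower in WT. Scaling to them thus gives no fixed reference for endothelial content. Tubule markers were also called lower with LPS in WT, with 5 of 12 proximal tubule, 3 of 7 loop of Henle and distal tubule and 4 of 6 collecting duct markers lower and 0 higher (medians -1.24, -0.90 and -1.24). In SOCS3iKEO 0 of these markers were lower, and 4 of 12 proximal tubule and 2 of 7 loop and distal tubule markers were higher. These tubule calls also depended on the scaling. On RPM as deposited Kap, Miox and Slc34a1 lost their SOCS3iKEO call (adjusted p = 0.748, 0.696 and 0.478). Relative to endothelial markers Slc34a1, Miox, Aqp2, Aqp3 and Fxyd4 lost their WT call (adjusted p = 0.0517 to 0.145). The part of tubule RNA in the falls of the arterial markers was not tested. The counts changed with single libraries, to 1 of 8 in SOCS3iKEO without WT saline 1 or WT saline 2 and 2 without SOCS3iKEO LPS 2, WT LPS 2 or WT LPS 3, and in WT to 1 without WT saline 1, WT saline 2 or WT LPS 3 and 2 without WT LPS 1 or WT LPS 2. WT libraries enter the SOCS3iKEO comparison only through the scaling, the filter and the shared spread. Its median for the 8 genes was -0.705 without WT saline 1 and -0.707 without WT saline 2. In these bulk libraries fewer arterial cells and less mRNA per arterial cell cannot be told apart.

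**Figure D1:**
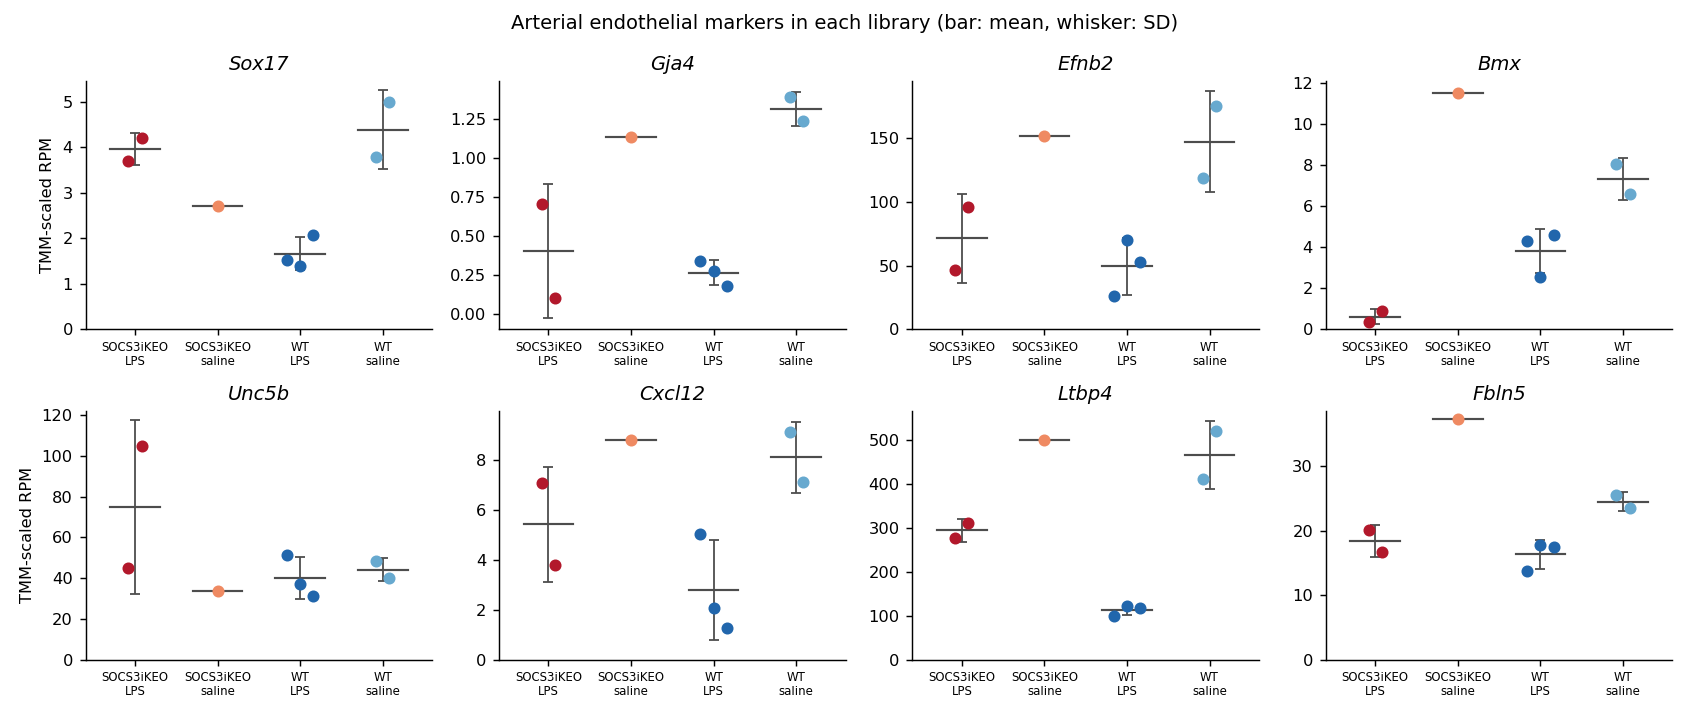
Level of each arterial marker in every library, in TMM-scaled RPM on a linear axis, by genotype and treatment, with points for mice, bars for group means and whiskers for the SD (no SD for the single SOCS3iKEO saline mouse). Ltbp4 was lowest in WT LPS and Bmx was lowest in SOCS3iKEO LPS, with no overlap with the other groups in either case.

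After LPS, the genotypes differed in 3 of the 8 genes, where 50.7% of all genes tested were called, 24% higher and 26.7% lower. Ltbp4 and Sox17 were higher in SOCS3iKEO LPS than in WT LPS and Bmx was lower. The groups did not overlap in the same 3 genes, 2 with SOCS3iKEO LPS above WT LPS (31.9% of all genes) and 1 below (35.3%). These 3 genes also differed in their LPS effect between genotypes by the interaction term, which was positive for Sox17 and Ltbp4 and negative for Bmx, and which was called for 18.5% of all genes, 8.96% higher and 9.49% lower. Without WT LPS 1, 5 of 8 differed after LPS, and 2 without WT LPS 2, while the interaction was called for 0 of 8 without WT saline 1, WT saline 2 or WT LPS 3, for 1 without WT LPS 2 and for 2 without SOCS3iKEO LPS 2. The median difference after LPS was 0.67 over the 8 genes and -0.04 over all genes. For the 8 genes it was 0.11 on RPM as deposited, 1.01 relative to endothelial markers and 0.39 without SOCS3iKEO LPS 2. Of the LPS libraries only WT LPS 2 and WT LPS 3 held more than 3 Y-linked reads, so Y-linked reads went partly with genotype. With a term for Y-linked reads the median of the 8 genes was 0.40, with 3 called higher and 1 lower. In that fit 2192 of all 12820 genes were higher and 2439 lower. Proximal tubule markers moved in the same comparison, with 11 of 12 higher and 0 lower in SOCS3iKEO LPS than in WT LPS. Their sum was 4514 and 3422 scaled RPM in SOCS3iKEO LPS, 2042 in SOCS3iKEO saline, 1104 to 1654 in WT LPS, against 2096 and 2065 in WT saline, with none of the 12 at 0 in any library. As deposited, the sum was 3030 and 2426 RPM in SOCS3iKEO LPS, 2544 in SOCS3iKEO saline, 1098 to 1667 in WT LPS, against 2646 and 2579 in WT saline. On that scale Aqp1 and Kap lost their genotype call after LPS (adjusted p = 0.137 and 0.148). The part of tubule RNA in the genotype differences of the arterial markers was not tested. After saline, 0 of 8 genes and 0 of all genes passed between SOCS3iKEO and WT with limma (423 genes at an unadjusted p under 0.05, 0 with edgeR and 5 with DESeq2), with log2 differences from -0.53 for Sox17 to 0.59 for Bmx and Fbln5. Only 1 SOCS3iKEO mouse stands behind that comparison.

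**Figure D2:**
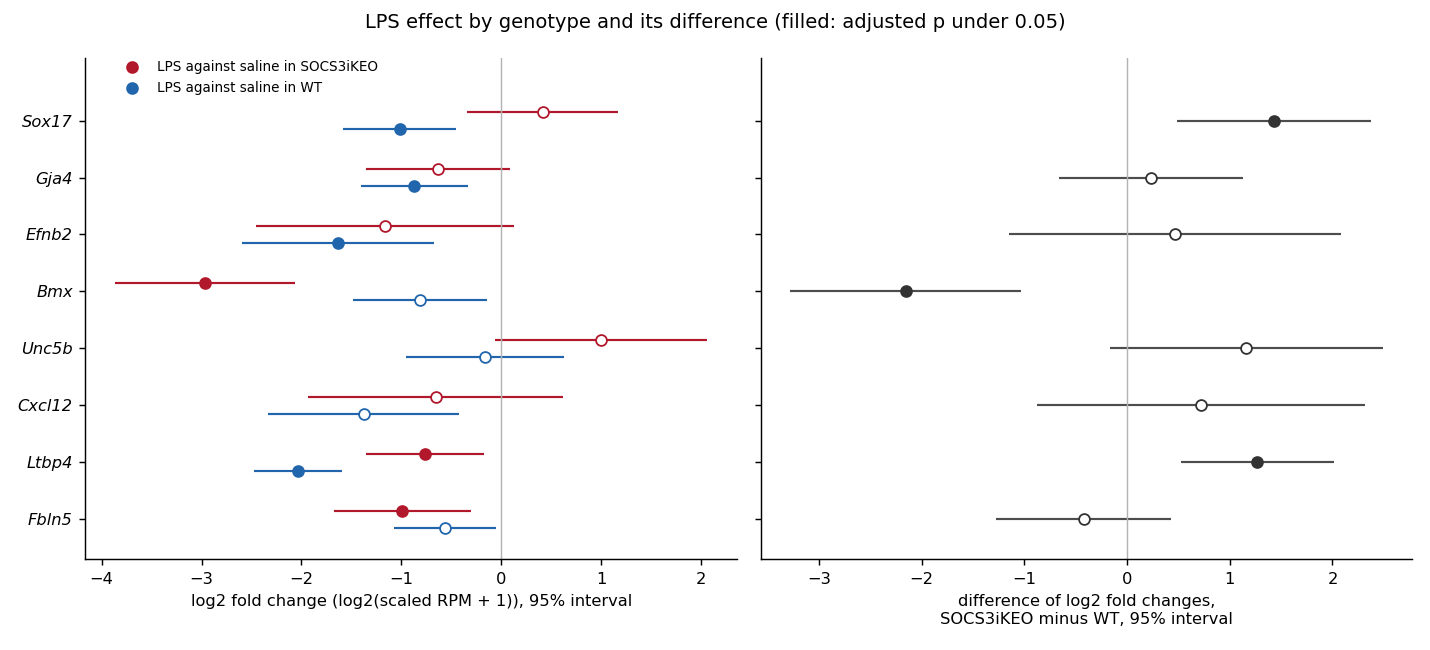
Left, log2 fold change of LPS against saline on the log2(scaled RPM + 1) scale in SOCS3iKEO (red) and WT (blue) with 95% intervals, and right, the SOCS3iKEO effect minus the WT effect, with filled points for an adjusted p under 0.05. The difference between genotypes was called for Bmx at -2.15, Ltbp4 at 1.27 and Sox17 at 1.43, and the 95% intervals of the other 5 genes included 0.

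Sox17 encodes a SOXF transcription factor needed to set up and maintain arterial identity (chr1:4490931-4497354). It was at 3.71 and 4.2 scaled RPM in SOCS3iKEO LPS, 2.71 in SOCS3iKEO saline, 1.52, 1.39 and 2.07 in WT LPS, against 3.78 and 5.00 in WT saline, from 18 to 93 reads per library. The WT LPS mice were thus the lowest, the SOCS3iKEO saline mouse came next, and the SOCS3iKEO LPS and WT saline mice overlapped. Sox17 fell with LPS in WT (log2 fold change -1.02, SE 0.25, adjusted p = 0.0261), while in SOCS3iKEO its log2 fold change was 0.41 (95% interval -0.34 to 1.17, adjusted p = 0.340). After LPS it was higher in SOCS3iKEO, at 3.96 ± 0.348 against 1.66 ± 0.365 scaled RPM in WT (SD, n = 2 and 3, log2 difference 0.91, adjusted p = 0.0145). The difference of the LPS effects was 1.43 (SE 0.42, adjusted p = 0.0443). The WT call was lost when any of the 5 WT libraries was left out (adjusted p = 0.050 to 0.184), the genotype call after LPS on RPM as deposited (0.131) or without WT LPS 2 (0.0554), and the interaction call under 11 of 15 alternatives, among them leaving out any library tried except WT LPS 1 (adjusted p = 0.0504 to 0.126).

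Its SOXF relatives Sox7 and Sox18 are expressed throughout endothelium and can stand in for Sox17 in mouse vessels. Sox7 was at 653 ± 48.5 scaled RPM in SOCS3iKEO LPS (n = 2), 190.3 in SOCS3iKEO saline, 162 ± 18.3 in WT LPS (n = 3), against 197 ± 14.1 in WT saline (n = 2). It rose with LPS in SOCS3iKEO (log2 fold change 1.77, adjusted p = 0.000821), and in WT its log2 fold change was -0.28 (adjusted p = 0.331). Sox18 was at 31.4 ± 4.96 scaled RPM in SOCS3iKEO LPS, 624 in SOCS3iKEO saline, 681 ± 285 in WT LPS, against 737 ± 31.5 in WT saline. Sox18 fell with LPS in SOCS3iKEO (-4.28, adjusted p = 0.000321) and had a log2 fold change of -0.22 in WT (adjusted p = 0.714). After LPS Sox18 was lower in SOCS3iKEO than in WT (log2 difference -4.30, adjusted p = 8.13e-05). So of the 3 SOXF genes Sox7 and Sox17 were higher and Sox18 was lower in SOCS3iKEO LPS than in WT LPS. Of 8 tested SOX genes other than Sox17, 5 were higher and 2 lower in that comparison, where 24% of all genes were higher and 26.7% lower. The higher genes were led by Sox9 at 2.81, a factor of injured tubule and cartilage cells. The lower genes were led by Sox18, with Sox13 at -1.46 as the other lower gene. On RPM as deposited Sox4 (0.31, adjusted p = 0.313) and Sox6 (0.52, 0.134), both among the higher genes, lost their call.

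Efnb2 encodes ephrin-B2, the transmembrane ligand that marks arterial endothelium (chr8:8617434-8661242). It was at 46.8 and 95.7 scaled RPM in SOCS3iKEO LPS, 151 in SOCS3iKEO saline, 25.9, 70.0 and 52.6 in WT LPS, against 119 and 175 in WT saline. All LPS mice were lower than all saline mice, the LPS groups overlapped each other, and the SOCS3iKEO saline mouse lay between the WT saline mice. Efnb2 fell in WT (log2 fold change -1.63, SE 0.43, adjusted p = 0.0329), and in SOCS3iKEO its log2 fold change was -1.16 (95% interval -2.46 to 0.13, adjusted p = 0.128). The difference between these effects was 0.47 with a 95% interval of -1.14 to 2.09. The WT call was lost without filter on low values (adjusted p = 0.129) and when WT saline 1 (0.122), WT saline 2 (0.215), WT LPS 1 (0.0612) or WT LPS 3 (0.0712) was left out.

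The receptor of ephrin-B2 on venous cells, Ephb4, was at 35.2 and 62.6 scaled RPM in SOCS3iKEO LPS, 125 in SOCS3iKEO saline, 150.2, 191 and 200.1 in WT LPS, against 132 and 145 in WT saline. It fell with LPS in SOCS3iKEO (log2 fold change -1.40, adjusted p = 0.0109) and had a log2 fold change of 0.37 in WT (adjusted p = 0.366), with a called difference of -1.77 (adjusted p = 0.0259). The ligand was thus lower in all LPS mice and the receptor was lower only in the SOCS3iKEO LPS mice. Ephb1, another ephrin-B receptor, was at 10.4 and 9.31 scaled RPM in SOCS3iKEO LPS, 16.2 in SOCS3iKEO saline, 2.02, 2.71 and 4.06 in WT LPS, against 14.8 and 18.6 in WT saline. Ephb1 fell in WT (log2 fold change -2.20, adjusted p = 0.00195), and after LPS it was higher in SOCS3iKEO than in WT (1.50, adjusted p = 0.00265). Epha2, an ephrin-A receptor known to be induced in inflamed endothelium, rose in both genotypes, by a log2 fold change of 2.77 in SOCS3iKEO and 1.16 in WT (adjusted p = 0.00101 and 0.0327), although on RPM as deposited the WT call was lost (0.0665). Of 12 tested ephrin and Eph genes other than Efnb2, these made up all calls for LPS in each genotype, 1 higher and 1 lower.

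Gja4 encodes a connexin of arterial gap junctions (chr4:127311421-127314039) and had few reads, 4 and 1 in SOCS3iKEO LPS, 10 in SOCS3iKEO saline, 4, 4 and 2 in WT LPS, against 25 and 23 in WT saline. These correspond to 0.707 and 0.100 scaled RPM in SOCS3iKEO LPS, 1.13 in SOCS3iKEO saline, 0.337, 0.278 and 0.180 in WT LPS, against 1.39 and 1.24 in WT saline. Every LPS mouse was below every saline mouse, and 2 of the 5 LPS mice were under the floor of 3 reads. With 10 reads in WT LPS against 48 in WT saline, the ratio of LPS over saline was 0.204 (exact 95% interval 0.0920 to 0.408, counting error only), and with 5 against 10 reads in SOCS3iKEO it was 0.282 (0.0757 to 0.907). Gja4 fell in WT by limma (log2 fold change -0.87, SE 0.24, adjusted p = 0.0382), on a scale that understates the change of genes near 1 RPM. The WT call was lost when any of the 5 WT libraries was left out (adjusted p = 0.0675 to 0.218), and with edgeR (0.0537) and DESeq2 (0.103). Between the genotypes after LPS the count ratio was 1.19 with an interval from 0.320 to 3.83, so a difference was not detectable at this depth. Of the other connexins, Gja1, which also forms junctions between endothelial cells, was at 1037 and 1003 scaled RPM in SOCS3iKEO LPS, 192 in SOCS3iKEO saline, 180.1, 83.3 and 143 in WT LPS, against 114 and 182 in WT saline. Gja1 rose with LPS in SOCS3iKEO (log2 fold change 2.40, adjusted p = 0.00270) and had a log2 fold change of -0.16 in WT (adjusted p = 0.783). Gjb2 also rose in SOCS3iKEO (2.50, adjusted p = 0.00283). Of the 4 tested genes of this list, the connexin Gjc1 and Panx1, which encodes a pannexin and not a connexin, were not called.

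Bmx encodes a TEC-family tyrosine kinase found in arterial endothelium and endocardium (chrX:164192842-164258193). It was at 0.353 and 0.901 scaled RPM in SOCS3iKEO LPS, 11.5 in SOCS3iKEO saline, 4.30, 2.57 and 4.6 in WT LPS, against 8.05 and 6.62 in WT saline. The groups followed one another without overlap, SOCS3iKEO LPS lowest, then WT LPS, then WT saline, with the SOCS3iKEO saline mouse highest. Only 2 and 9 reads remained in SOCS3iKEO LPS, against 102 in SOCS3iKEO saline and 37 to 145 in the WT libraries. Bmx fell with LPS in SOCS3iKEO (log2 fold change -2.97, SE 0.40, adjusted p = 0.000697), and in WT its log2 fold change was -0.81 (95% interval -1.48 to -0.14, adjusted p = 0.0947). By reads, LPS over saline was 0.0609 in SOCS3iKEO (exact 95% interval 0.0295 to 0.114) and 0.508 in WT (0.411 to 0.626), counting error only. After LPS Bmx was lower in SOCS3iKEO than in WT (log2 difference -1.56, SE 0.30, adjusted p = 0.00257), a count ratio of 0.189 (0.0922 to 0.349). The difference of the LPS effects was -2.15 (SE 0.50, adjusted p = 0.0221). Both the fall in SOCS3iKEO and the genotype difference after LPS kept their calls under every alternative run for them (15 and 16), while the interaction call was lost without WT saline 1 (0.0736), WT saline 2 (0.0745) or WT LPS 3 (0.0551) and without filter on low values (0.0680). Tec, the 1 of 4 other TEC-family kinases that passed the filter, was higher in SOCS3iKEO LPS than in WT LPS (1.05, adjusted p = 0.0366), but not on RPM as deposited (0.58, adjusted p = 0.196).

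Unc5b encodes a netrin receptor of arterial and sprouting endothelium (chr10:60762593-60831581). It was at 44.7 and 105 scaled RPM in SOCS3iKEO LPS, 33.8 in SOCS3iKEO saline, 51.4, 37.2 and 31.4 in WT LPS, against 48.2 and 40.2 in WT saline. The second SOCS3iKEO LPS mouse was above all others and the remaining mice overlapped across groups. The log2 fold change of LPS was 1.00 in SOCS3iKEO (95% interval -0.07 to 2.06, adjusted p = 0.114) and -0.16 in WT (-0.96 to 0.63, adjusted p = 0.791). Without SOCS3iKEO LPS 1 the SOCS3iKEO value was 1.59 and passed (adjusted p = 0.0129), and without SOCS3iKEO LPS 2 it was 0.40 (0.385). With both mice it passed relative to endothelial markers (1.64, adjusted p = 0.0209) and with DESeq2 (1.21, 0.0356). After LPS Unc5b did not pass between SOCS3iKEO and WT (log2 difference 0.79, 95% interval -0.00 to 1.59, adjusted p = 0.0871), but it passed under 4 of 16 alternatives, without SOCS3iKEO LPS 1 (1.40, 0.0107), without WT LPS 1 (0.99, 0.0493), relative to endothelial markers (1.14, 0.0254) and with DESeq2 (0.98, 0.0184). A list of other netrin receptors, their ligands and related genes held 10 tested genes, among them Robo4, an endothelial guidance receptor that can bind UNC5B. Robo4 was at 228 ± 71.7 scaled RPM in SOCS3iKEO LPS, 42.3 in SOCS3iKEO saline, 64.6 ± 10.2 in WT LPS, against 58.3 ± 12.2 in WT saline. Robo4 rose with LPS in SOCS3iKEO (2.37, adjusted p = 0.000924), and in WT its log2 fold change was 0.15 (adjusted p = 0.732). The netrin gene Ntn4, a basement membrane ligand, fell in both genotypes, with log2 fold changes of -2.81 in SOCS3iKEO and -2.11 in WT (adjusted p = 0.00337 and 0.00969). The related receptor Unc5c fell as well, at -1.28 in SOCS3iKEO and -1.49 in WT (adjusted p = 0.0373 and 0.0157). Its reads were few, 1 and 11 in SOCS3iKEO LPS, 25 in SOCS3iKEO saline, 7, 4 and 3 in WT LPS, against 36 and 74 in WT saline. At such levels the log2(scaled RPM + 1) scale understates the change.

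Cxcl12 encodes the chemokine that binds CXCR4 and ACKR3 and is produced by arterial endothelium and by stromal cells (chr6:117168535-117181367). It was at 7.07 and 3.80 scaled RPM in SOCS3iKEO LPS, 8.82 in SOCS3iKEO saline, 5.05, 2.08 and 1.26 in WT LPS, against 9.11 and 7.10 in WT saline. All LPS mice were below all saline mice, by little for the first SOCS3iKEO LPS mouse, and the LPS groups overlapped. Neither the log2 fold change of -0.66 in SOCS3iKEO (SE 0.57, adjusted p = 0.370) nor that of -1.38 in WT passed (SE 0.42, adjusted p = 0.0563). The WT value did pass under 6 of 17 alternatives, among them DESeq2 (-1.53, adjusted p = 0.0378) and the fit without WT LPS 1 (-1.77, adjusted p = 0.0168). The signalling receptor Cxcr4 was at 0.530 and 1.30 scaled RPM in SOCS3iKEO LPS, 8.14 in SOCS3iKEO saline, 0.926, 2.57 and 2.07 in WT LPS, against 6.44 and 8.66 in WT saline. Cxcr4 fell in both genotypes (log2 fold change -2.29 in SOCS3iKEO and -1.62 in WT, adjusted p = 0.00371 and 0.0135). The scavenging receptor Ackr3 was at 1153 and 1008 scaled RPM in SOCS3iKEO LPS, 31.8 in SOCS3iKEO saline, 105, 29.4 and 43.8 in WT LPS, against 28.8 and 33.8 in WT saline. Ackr3 rose in SOCS3iKEO (5.04, adjusted p = 0.000380) and had a log2 fold change of 0.70 in WT (adjusted p = 0.298), with a difference of 4.34 between genotypes (adjusted p = 0.00856).

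Ltbp4 encodes a binding protein of latent TGF-beta that helps assemble elastic fibres (chr7:27305136-27337692). It was at 276 and 312 scaled RPM in SOCS3iKEO LPS, 499 in SOCS3iKEO saline, 99.4, 121 and 117 in WT LPS, against 411 and 520.0 in WT saline. WT LPS was lowest and SOCS3iKEO LPS lay between WT LPS and all saline mice, with no overlap, and the SOCS3iKEO saline mouse was within the range of WT saline. Ltbp4 fell by a log2 fold change of -0.76 in SOCS3iKEO (SE 0.26, adjusted p = 0.0414) and of -2.03 in WT (SE 0.20, adjusted p = 0.000441). After LPS it stood at 294 ± 25.3 scaled RPM in SOCS3iKEO, against 113 ± 11.6 in WT (SD, n = 2 and 3, log2 difference 1.38, SE 0.20, adjusted p = 0.000628). The difference of the LPS effects was 1.27 (SE 0.33, adjusted p = 0.0307). The WT fall and the genotype difference after LPS kept their calls under all 17 and 16 alternatives run for them, with values from -2.33 to -1.57 and from 0.81 to 1.73. The SOCS3iKEO call was lost under 9 of 15 alternatives, including edgeR (adjusted p = 0.0508), and without SOCS3iKEO LPS 1 (0.0883), WT saline 1 (0.0646), WT saline 2 (0.0644), WT LPS 2 (0.0652) or WT LPS 3 (0.0622). The interaction call was lost on RPM as deposited (0.71, adjusted p = 0.157), without filter (0.0696) and without WT saline 1 (0.0803), WT saline 2 (0.108), WT LPS 2 (0.0616) or WT LPS 3 (0.0613).

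Fbln5 encodes fibulin-5, which links elastic fibres to cell surface integrins (chr12:101746565-101819055). It was at 20.1 and 16.6 scaled RPM in SOCS3iKEO LPS, 37.3 in SOCS3iKEO saline, 13.7, 17.7 and 17.5 in WT LPS, against 25.5 and 23.5 in WT saline. The 2 LPS groups overlapped below the saline mice, and the SOCS3iKEO saline mouse was above both WT saline mice. Fbln5 fell in SOCS3iKEO (log2 fold change -0.99, SE 0.30, adjusted p = 0.0263), and its log2 fold change in WT was -0.57 (95% interval -1.08 to -0.06, adjusted p = 0.119). The difference between the effects, -0.42, had an interval of -1.28 to 0.43. The SOCS3iKEO call was lost without WT saline 1 (0.0542), WT saline 2 (0.0540) or SOCS3iKEO LPS 2 (0.0550), and when libraries were scaled to endothelial markers (-0.36, adjusted p = 0.438).

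Of 14 other tested genes of elastic fibres and TGF-beta binding, 1 rose and 6 fell with LPS in SOCS3iKEO, and 2 rose and 3 fell in WT. Relative to endothelial markers the SOCS3iKEO falls of Efemp2, Emilin1, Eln, Fbln2 and Ltbp1 lost their call (adjusted p = 0.0579 to 0.342). The WT fall of Fbln2 lost its call as well (0.109). Ltbp1, a relative of Ltbp4, was at 12.0 and 20.8 scaled RPM in SOCS3iKEO LPS, 43.7 in SOCS3iKEO saline, 6.32, 7.22 and 8.12 in WT LPS, against 42.3 and 56.6 in WT saline. Its groups had the same order as those of Ltbp4, with the SOCS3iKEO saline mouse within the range of WT saline, and it fell in both genotypes (log2 fold change -1.41 in SOCS3iKEO and -2.61 in WT, adjusted p = 0.0152 and 0.000795). Mfap2, a microfibril protein, fell in both genotypes (-2.49 in SOCS3iKEO and -1.47 in WT, adjusted p = 0.00112 and 0.00981), and Lox, the enzyme that cross-links elastin, rose in both (2.003 in SOCS3iKEO and 1.15 in WT, adjusted p = 0.00203 and 0.0180). Elastin itself, Eln, fell in SOCS3iKEO (-1.75, adjusted p = 0.0194) and had a log2 fold change of 0.02 in WT (adjusted p = 0.980). Smooth muscle cells and pericytes share these genes, and their 11 markers in the table summed to 50.0 and 48.6 scaled RPM in SOCS3iKEO LPS, 113.6 in SOCS3iKEO saline, 39.5 to 54.6 in WT LPS, against 93.0 and 99.9 in WT saline. Mylk, which endothelium also expresses, was more than all the others together in every library except SOCS3iKEO LPS 1. It was the 1 of 9 tested mural markers called with LPS, at -1.97 in SOCS3iKEO and -1.10 in WT (adjusted p = 0.00210 and 0.0200). Without Mylk the other 10 summed to 31.98 and 23.7 scaled RPM in SOCS3iKEO LPS, 27.6 in SOCS3iKEO saline, 8.66 to 10.95 in WT LPS, against 12.6 and 15.01 in WT saline, and Cnn1 was listed at 0 in 5 of 8 libraries. The part of mural cells in the falls of Ltbp4 and Fbln5 was not tested.

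**Figure D3:**
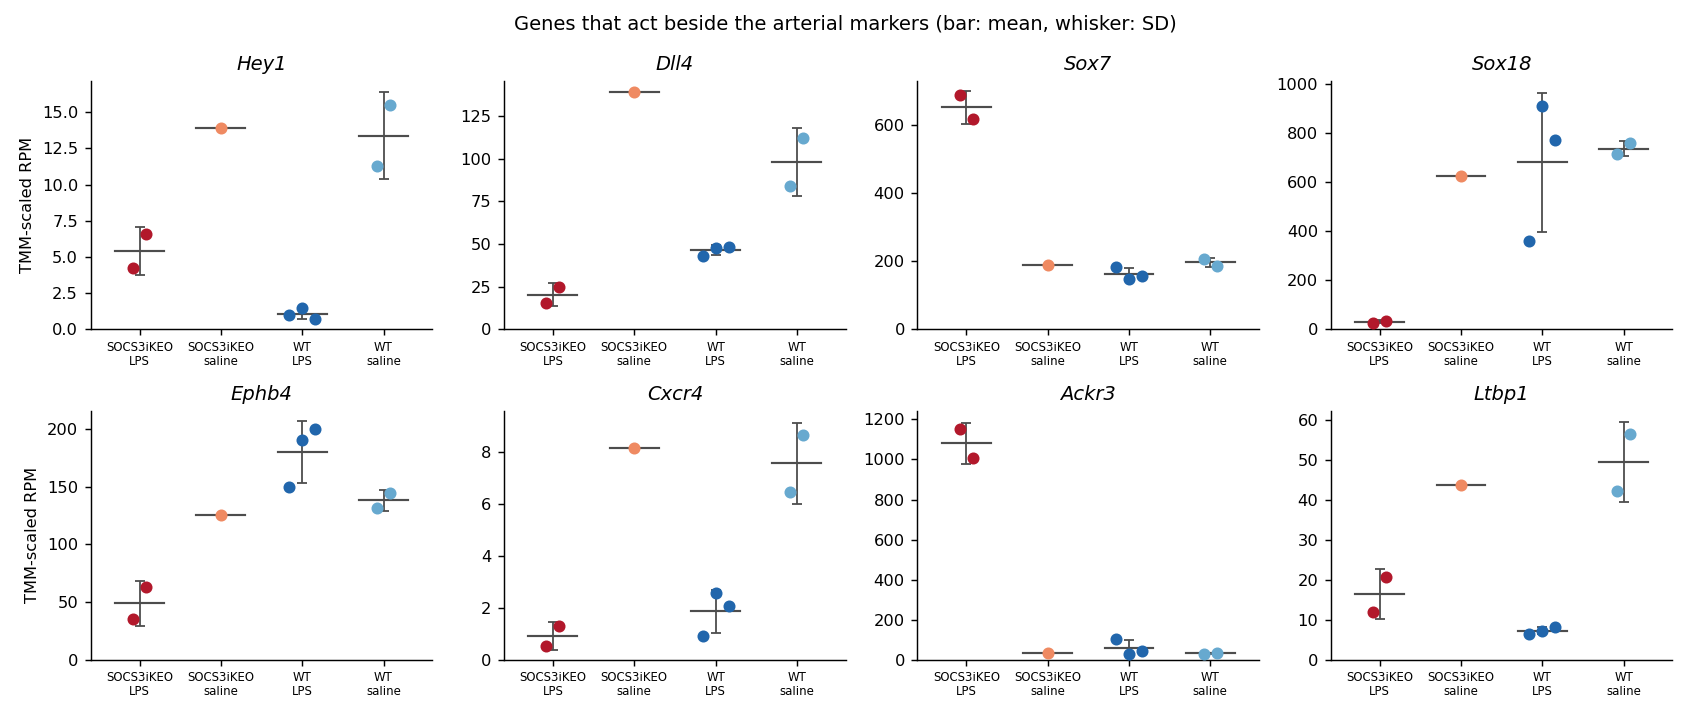
Level in every library, in TMM-scaled RPM on a linear axis, of 8 genes that act beside the arterial markers: the Notch target Hey1 and ligand Dll4, the SOXF genes Sox7 and Sox18, the ephrin-B2 receptor Ephb4, the CXCL12 receptors Cxcr4 and Ackr3, and Ltbp1. Points are mice, bars means and whiskers SDs. Ackr3 was at 1153 and 1008 in SOCS3iKEO LPS, against at most 105 elsewhere, and Sox18 at 27.9 and 34.9 in SOCS3iKEO LPS, against at least 362 elsewhere.

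Over both genotypes together, with genotype as a covariate, 5 of 8 markers fell with LPS and 0 rose, where 22.7% of all genes tested were called, 12.5% lower and 10.2% higher. They were Ltbp4 (log2 fold change -1.58, adjusted p = 0.00507), Bmx (-1.58, 0.0281), Efnb2 (-1.47, 0.0207), Gja4 (-0.79, 0.0221) and Fbln5 (-0.72, 0.0434). In these 5 genes and in Cxcl12 (-1.12, adjusted p = 0.0565) each of the 5 LPS mice was below each of the 3 saline mice, as were 16.3% of all genes. With the run of animal numbers as a term, 6 of 8 fell, Cxcl12 among them (-1.02, adjusted p = 0.0402). In that fit 3294 of all 12820 genes fell and 2692 rose. The run term is here the same as a genotype by LPS interaction term, so it does not adjust for run. Ltbp4 kept its call under all 17 alternatives and Efnb2 under 16 of 17, while Bmx lost it under 4, Gja4 under 6 and Fbln5 under 9. The number called was between 2 and 6 when a library was left out, with 2 without WT saline 2 or without SOCS3iKEO LPS 2.

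How far the markers fell depended on the scaling between libraries, and so did the split of all genes. With LPS in SOCS3iKEO, 2589 genes rose and 3060 fell on TMM-scaled RPM, 1219 and 5686 on RPM as deposited, and 3913 and 1714 relative to 23 endothelial markers. In WT the counts were 878 and 1127, 586 and 2366, and 2247 and 473, and between SOCS3iKEO LPS and WT LPS they were 3075 higher and 3426 lower, 1720 and 5346, and 3857 and 2371. The median log2 fold change of all genes with LPS was -0.73 in SOCS3iKEO and -0.26 in WT on RPM as deposited, and 0.45 and 0.35 after scaling to the capillary and pan-endothelial list. Genes of that list moved with LPS themselves, so it is no fixed reference. As deposited, 5 of 8 arterial markers fell in SOCS3iKEO and 7 of 8 in WT, and 0 rose. Relative to the endothelial markers, 1 fell (Bmx) and 1 rose (Unc5b, 1.64, adjusted p = 0.0209) in SOCS3iKEO, and 2 fell (Ltbp4 and Efnb2) in WT. Bmx in SOCS3iKEO and Ltbp4 and Efnb2 in WT thus fell on all 3 scales. Between genotypes after LPS, Ltbp4 was higher and Bmx lower in SOCS3iKEO on all 3 scales, and Sox17 was called on 2 of them. Among the genes named beside the markers, calls lost relative to endothelial markers included those of Hey1 (adjusted p = 0.189), Ephb4 (0.0646), Ltbp1 (0.0903), Eln (0.0852) and Unc5c (0.0934) with LPS in SOCS3iKEO. In WT they included those of Dll4 (0.0872) and Mylk (0.0655).

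**Figure D4:**
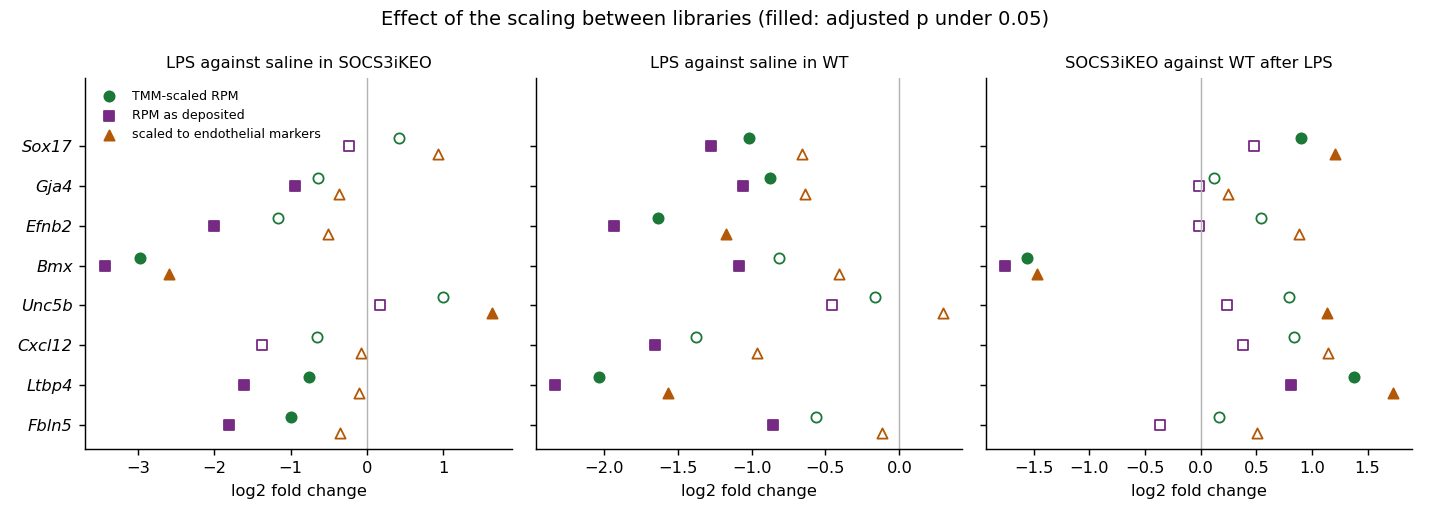
Log2 fold change of each arterial marker under 3 scalings between libraries (TMM-scaled RPM, RPM as deposited, and scaled to endothelial markers), with filled symbols for an adjusted p under 0.05. Values as deposited lay lowest and values relative to endothelial markers highest for every gene in LPS against saline, and Bmx, at -1.56 on TMM-scaled RPM, was the only gene below 0 on all 3 scales between genotypes after LPS.

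Other arterial genes moved in both directions. Of 33 tested genes of a wider arterial list, 8 rose and 14 fell with LPS in SOCS3iKEO and 1 rose and 11 fell in WT, with medians of -0.61 and -0.28. These counts turned with the scaling, to 4 higher and 18 lower in SOCS3iKEO and 1 higher and 13 lower in WT on RPM as deposited, and to 10 higher and 6 lower in SOCS3iKEO and 7 higher and 4 lower in WT relative to endothelial markers. The Notch target Hey1 was at 4.24 and 6.60 scaled RPM in SOCS3iKEO LPS, 13.9 in SOCS3iKEO saline, 1.01, 1.46 and 0.721 in WT LPS, against 11.3 and 15.5 in WT saline, the same order of groups as Ltbp4. Hey1 fell in both genotypes (-1.24 in SOCS3iKEO and -2.80 in WT, adjusted p = 0.0304 and 0.000692). The Notch ligand Dll4 had the order of Bmx, at 20.4 ± 6.57 scaled RPM in SOCS3iKEO LPS, 139 in SOCS3iKEO saline, 46.5 ± 2.93 in WT LPS, against 97.8 ± 20.0 in WT saline. Dll4 fell in both genotypes (-2.75 in SOCS3iKEO and -1.04 in WT, adjusted p = 0.000415 and 0.0211), with a called difference of -1.70 (adjusted p = 0.0240). The Wnt pathway gene Dkk2 fell in both genotypes (-3.15 in SOCS3iKEO and -3.64 in WT, adjusted p = 0.000693 and 0.000253). Sema3g, an arterial semaphorin, fell in SOCS3iKEO (-2.50, adjusted p = 0.00107) and had a log2 fold change of 0.53 in WT (adjusted p = 0.223). Plat, the tissue plasminogen activator, was the gene of this list that rose most, by 4.70 in SOCS3iKEO and 2.76 in WT (adjusted p = 0.000785 and 0.00726). After LPS 17 of the 33 were higher and 7 lower in SOCS3iKEO than in WT, with a median of 0.77 (11 and 8 on RPM as deposited).

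Of 14 tested venous genes, 5 rose and 3 fell in SOCS3iKEO and 6 rose and 3 fell in WT, with medians of -0.02 and 0.51. On RPM as deposited the medians were -0.84 and 0.22, and relative to endothelial markers 0.62 and 0.98. Nr2f2, the transcription factor that imposes venous identity, was at 995 ± 272 scaled RPM in SOCS3iKEO LPS, 471 in SOCS3iKEO saline, 1583 ± 19.3 in WT LPS, against 433 ± 111 in WT saline. It rose in both genotypes (log2 fold change 1.05 in SOCS3iKEO and 1.89 in WT, adjusted p = 0.0292 and 0.00192), although its SOCS3iKEO call was lost on RPM as deposited (0.20, adjusted p = 0.643). Selp, the P-selectin of venules, rose by 6.76 in SOCS3iKEO and 4.27 in WT (adjusted p = 0.000143 and 0.000486), and Aplnr, the apelin receptor of veins and sprouting cells, fell, with log2 fold changes of -4.62 in SOCS3iKEO and -3.34 in WT (adjusted p = 0.000236 and 0.000700). Of 23 capillary and pan-endothelial markers, 6 rose and 11 fell in SOCS3iKEO and 2 rose and 6 fell in WT, with medians of -1.04 and -0.28. The medians of the arterial markers, -0.71 and -0.95, were thus above that of the capillary list in SOCS3iKEO and below it in WT, and these lists were not tested against each other.

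**Figure D5:**
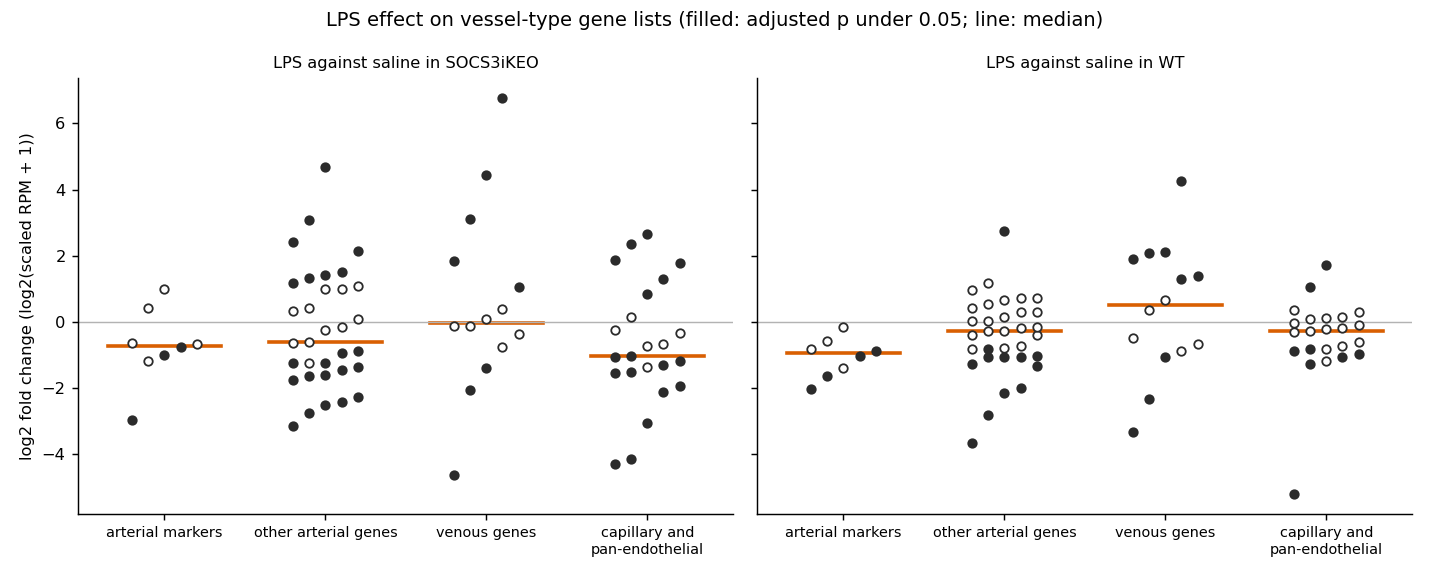
Log2 fold change with LPS on the log2(scaled RPM + 1) scale of each gene of 4 endothelial lists, SOCS3iKEO left and WT right, with filled points for an adjusted p under 0.05 and lines for medians. The arterial markers had medians of -0.71 in SOCS3iKEO and -0.95 in WT, and the venous list, with Selp at 6.76 and 4.27, held genes that moved far in both directions.

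The 8 markers did not follow 1 common pattern across libraries. As the root mean square difference of log2 values, each centred on its mean over 8 libraries, the closest pair was Gja4 and Fbln5 at 0.27 and the farthest Bmx and Unc5b at 1.36. Bmx was at 0.86 or more from each of the other markers. These differences also depend on how far each gene moved. For Gja4, at 0.100 to 1.39 scaled RPM, the 1 added before the log narrows the movement. By reads its ratio of LPS over saline in WT was 0.204, against a fold of 0.546 by limma on that scale. The small distances of Gja4 to Fbln5 and to other genes thus hold only for this flattened scale. The root mean square of a gene around its own mean was 0.40 for Fbln5, 0.42 for Gja4 and 1.03 for Bmx. Among 8127 genes with a mean log2 value of 3 or more, the nearest to Ltbp4 was Ephb1 at 0.18, a member of the Eph family described above. The nearest to Sox17 were Aplp2 at 0.17 and Sema6a at 0.18, and to Bmx Aldh3b1 at 0.23 and Tango6 at 0.25. Fbln5 was nearest to Erg at 0.13, an endothelial transcription factor, and Unc5b to Wwtr1 at 0.16, a Hippo pathway coactivator. Gja4, whose own root mean square around its mean was 0.42, was nearest to Ppt1 at 0.06, Efnb2 to Txndc16 at 0.29 and Cxcl12 to Fam84a at 0.32. All these distances share the same 8 libraries and 4 groups.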

How the data were processed

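Kidney libraries of 8 mice were measured with an AmpliSeq mouse transcriptome panel, and the authors deposited 1 table of RPM values per amplicon. The submitters' processing notes name the Transcriptome Analysis Console and, as genome build, mm10. The sources used here do not state aligner, counter or filters. In each library 100% of RPM values were whole multiples of 1 read within 0.1 read, which gave back depth and reads. The exact intervals of the count ratios and the floors cover counting error only. PCR copies without molecular identifiers are not independent molecules, so these intervals may be too narrow. Intervals of log2 fold changes come from limma and rest on the spread between mice. Altogether 27 gene names turned into dates were restored, and Gja5 was not analysed here.

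RPM values were scaled by TMM factors computed on the recovered reads after filterByExpr, and log2(scaled RPM + 1) was fitted with limma 3.58.1 (R 4.3.3), 1 mean per group, mean-variance trend, Benjamini-Hochberg adjustment over 12820 genes and a threshold of 0.05. The effect over both genotypes came from an additive fit. With edgeR 4.0.16, the quasi-likelihood test on recovered reads called 2065 genes for LPS in WT, 5194 in SOCS3iKEO, and 6253 between genotypes after LPS. Alternatives were RPM as deposited, no filter, other pseudocounts, edgeR, DESeq2 1.42.0, the run of animal numbers and each library left out. Scaling to endothelial markers, a term for Y-linked reads and leaving out the SOCS3iKEO LPS libraries were chosen after seeing the data.

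The text names every arterial marker, for some lists called genes, functional partners, and the genes with the most similar pattern. The called genes named were not always those with the largest changes. In WT the venous genes Gas6, Vcam1 and Lrg1, with called log2 fold changes of -2.31, 2.10 and 2.08, changed more than Nr2f2. The arterial markers and lists were chosen with earlier results of these data known.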

Additional observations from a re-analysis of the deposited data

Results flagged for a closer look

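In all, 3 arterial markers had an LPS effect that differed between the genotypes by the interaction term of the limma fit. For Sox17 the effect in SOCS3iKEO minus that in WT was 1.43 on the log2 scale (adjusted p = 0.0443), with effects of 0.41 in SOCS3iKEO and -1.02 in WT. For Bmx it was -2.15 (adjusted p = 0.0221), with effects of -2.97 in SOCS3iKEO and -0.81 in WT. For Ltbp4 it was 1.27 (adjusted p = 0.0307), with effects of -0.76 in SOCS3iKEO and -2.03 in WT. The SOCS3iKEO effects rest on 1 saline mouse, and the run of animal numbers and the interaction cannot be told apart. No group had 4 or more mice, so no single library was checked for standing apart within its group.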

How the results depend on the processing

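No direction of a called marker was reversed under the alternatives run. On RPM as deposited the markers called were 7 for LPS in WT (against 4), 5 for LPS in SOCS3iKEO (against 3) and 1 for the interaction (against 3). Without filter on low values they were 1 for LPS in WT and 0 for the interaction, and relative to endothelial markers 2 for LPS in WT and 2 over both genotypes (against 5). With a library left out, the markers called ranged from 1 to 4 for LPS in WT, 1 to 4 for LPS in SOCS3iKEO, 2 to 5 between genotypes after LPS, 0 to 3 for the interaction and 2 to 6 over both genotypes. Of all genes, 1078 were called without filter for LPS in WT (against 2005) and 844 for the interaction (against 2366). With a library left out these counts ranged from 348 to 2554 and from 238 to 3679, and over both genotypes from 1621 to 2661 (against 2907), where a term for the run of animal numbers gave 5986. The run term is in these libraries the same as a genotype by LPS interaction term and does not adjust for run. Between genotypes after saline, 2 genes passed without filter, 1 with a pseudocount of 0.1 and 5 with DESeq2 (against 0). The cause was not tested. Without the 1 SOCS3iKEO saline library, LPS in SOCS3iKEO, the interaction and the genotype comparison after saline have no value. No paired analysis was possible because the labels number each mouse once and give the groups no shared replicate numbers. Depth limits Gja4 most, with 1 to 25 reads per library.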
